A study of Mus musculus with 4 samples.

Results

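The ATP-binding cassette (ABC) family was followed in crypt epithelium of the mouse jejunum, in Yy1 knockout and control mice. Members were taken by name, as genes whose symbol starts with Abca to Abcg and a digit and that have a probe set annotated to that gene alone. Of 45 such symbols 1 was set aside by the rule, which left 44 genes, measured by 90 probe sets, among 18193 genes in all. By subfamily these were 14 A, 8 B, 10 C, 2 D, 1 E, 3 F and 6 G genes. Where a gene had several probe sets (groups of short oligonucleotides that report on the same transcript), the one with the highest mean over the 4 arrays stood for it.

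The knockout group was 2 arrays of mice with floxed Yy1 alleles (YY1f/f) and Vil-Cre-ERT2, a tamoxifen-dependent Cre recombinase driven by the Villin promoter, which is active throughout the intestinal epithelium and not in crypts alone. The other group was 2 arrays of mice labelled control, with a genotype not given in the sources used here. Labels name 4 days of tamoxifen in one sentence for all arrays, and it was not clear whether control mice received it, so effects of tamoxifen or of Cre and effects of losing Yy1 cannot be told apart. All mice carry the strain label C57BL/6J enriched, with age not given in the sources used here. Replicate arrays carry titles that call them biological and do not say how many animals each holds, so the p-values measure the spread between these arrays.

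ABC proteins use the energy of ATP to move substrates across membranes. In the small intestine, members at the apical face of the enterocyte return plant sterols, cholesterol, drugs and conjugated compounds to the gut lumen, while others at the basolateral face pass cholesterol or conjugates toward the blood. Further members sit in mitochondria, peroxisomes and lysosomes, and those of the E and F subfamilies move nothing across membranes but act on the ribosome.

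Median intensity over all probe sets was between 139 and 143 on the 4 arrays. The 27 control probe sets for Bacillus genes, taken as a measure of background, had medians between 31.9 and 35.6 and a highest value of 129. Yy1 was lower in the knockout with each of its 4 probe sets, at log2 differences of -4.31 to -1.37. For Gapdh the array's 3' control probe sets exceeded its 5' ones, a sign of RNA quality, by log2 values of 1.42 ± 0.0316 (SD, n = 2) in control and 1.68 ± 0.0438 in knockout arrays (exact permutation p = 0.333, two-sided, the smallest that 2 arrays against 2 can give). Its part in the results was not tested. Of 11 measured crypt markers Top2a, Pcna and Mmp7 rose and the stem cell marker Olfm4 fell (-0.62 ± 0.10), Lyz1, Mki67 and Slc12a2 were bright on every array and not called, and Lgr5 was dim, between 59.5 and 69.2. Rises were 27.3% and falls 9.09% of this list, beside 13.4% and 11.0% of all genes. The count of rises was 1 without control replicate 1, control replicate 2 or knockout replicate 1, and 5 with the mean of all probe sets or with a trended and robust prior.

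Markers of mature enterocytes were lower on the same arrays as the 10 falling members described below. Of 14 measured enterocyte markers 12 fell and none rose (median log2 difference -1.28), and their summed intensity in knockout arrays was 58.9% of that in controls, at 82092 and 80619 in control and 39842 and 56023 in knockout arrays. Without control replicate 1 or control replicate 2, 7 of them were called. None of the 14 was at 0 or under the Bacillus medians. Some were among the bright genes of these crypt preparations, such as Fabp2 at 13954 and 13655 in control and 9865 and 11659 in knockout arrays. In bulk RNA, fewer enterocytes in the tissue, fewer carried into a preparation and less RNA per enterocyte cannot be told apart. The part of any of these in the falls below was not tested. The summed level of 8 endothelial markers was 690 and 686 in control and 742 and 712 in knockout arrays, that of 12 mesenchymal markers 1787 and 1975 against 1740 and 1561. No endothelial marker was called, the mesenchymal markers Pdgfra (-0.90 ± 0.10) and Des (-0.81 ± 0.24) fell, and neither call was made with the dimmest or the mean of a gene's probe sets. Falls were 16.7% of the mesenchymal list and 18.2% of the immune list described next, beside 11.0% of all genes called lower. The sum of 11 immune markers, 9360 and 9744 against 8740 and 9584, was mostly Lyz2, at 7550 and 7845 against 7285 and 7977 (-0.01 ± 0.10). Of the 11, 9 were below zero, and the lymphocyte and leukocyte markers Cd3g (-0.69 ± 0.11) and Ptprc (-0.42 ± 0.12) fell, and the count for the list was 1 when control replicate 1, control replicate 2 or knockout replicate 1 was left out.

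Of 10 markers of goblet, tuft and endocrine cells 3 fell and 1 rose. That is 30% lower and 10% higher, beside 11.0% and 13.4% of all genes. The tuft cell markers Dclk1 (-0.57 ± 0.11) and Pou2f3 (-0.45 ± 0.11) and the goblet cell marker Clca1 (-0.47 ± 0.11) fell, and Cck, an endocrine hormone gene, rose (0.41 ± 0.10). Their summed level was 30586 and 31975 in control and 26981 and 29585 in knockout arrays. The falls numbered 0 without control replicate 1 and 1 without control replicate 2 or knockout replicate 1, and the rise was called in none of these fits. No marker of any of these lists was at 0 on all arrays, and the part of these cells in the ABC results was not tested.

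Of the 44 ABC genes 10 fell and 2 rose in the knockout, at an adjusted p under 0.05 by limma with Benjamini-Hochberg adjustment over all genes. That is 27.3% of the members, beside 24.4% of all genes. In the lower direction it is 22.7% of members beside 11.0% of all genes, and in the higher direction 4.55% beside 13.4%. The median log2 difference was -0.05 for the members and 0.01 for all genes. All 12 calls were among the 24 members whose mean was above 143, the median over all probe sets, and among genes that bright 39.5% were called when they were fitted alone. Leaving out 1 array changed the calls of all genes too, from 1994 lower to between 1040 and 2059. The groups did not overlap in 25 of 44 members, or 56.8%, beside 62.0% of all genes.

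**Figure D1:**
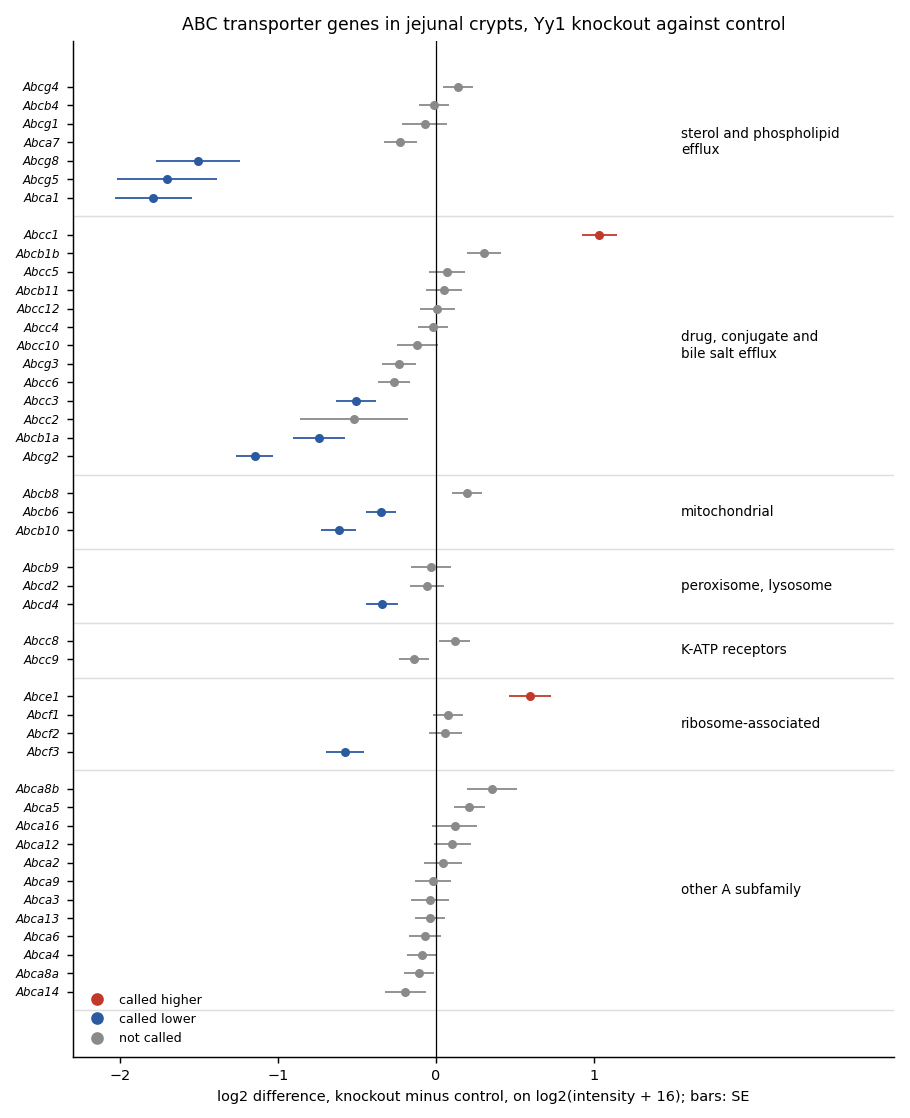
Log2 difference, knockout minus control on log2(intensity + 16), for the 44 ABC genes, grouped by role, with SE bars from the limma fit (2 arrays per group). The falls with the largest size are Abca1, Abcg5, Abcg8 and Abcg2, Abcc1 and Abce1 are the 2 rises, and 32 genes were not called.

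Sterol and phospholipid exporters held the largest falls. Of 7 measured members with this role 3 fell, Abca1, Abcg5 and Abcg8, and none rose. The falls were 42.9% of the role, beside 11.0% of all genes called lower. Abcg5 and Abcg8 encode half-transporters that pair at the apical membrane and return plant sterols and cholesterol to the gut lumen. Abcg5 (probe set 1419393_at) had intensities of 2003 and 2166 in control replicates 1 and 2 and of 421 and 934 in knockout replicates 1 and 2. Both knockout arrays lay below both controls, and replicate 1 was the lower of them. The log2 difference was -1.70 ± 0.31 (SE), a 3.26-fold fall on the log2(intensity + 16) scale, with an adjusted p of 0.00880 by limma.

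Abcg8 (1420656_at) followed the same order, with 1807 and 1930 in control and 463 and 898 in knockout arrays. Its log2 difference was -1.51 ± 0.27, a 2.84-fold fall (limma adjusted p = 0.00756). Each of the pair has 1 probe set, and the knockout arrays differed from each other more than the controls did. With a trended and robust prior for the spread, the adjusted p was 0.101 for Abcg5 and 0.0658 for Abcg8, at the upper end of their ranges over 14 alternatives, which began at 0.000394 and 0.000477.

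The 2 genes lie head to head on chromosome 17. Their RefSeq starts are separated by 109 bases at chr17:84683012-84683120 (GRCm38.p6, plus strand), with Abcg5 leaving to the left and Abcg8 to the right. This stretch is shown because a single short interval lies before both starts of a pair that fell together. Capitals mark AGATAA or its reverse complement, the letters of the GATA factor motif, which were searched after the sequence had been seen.

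Abcg5 to Abcg8: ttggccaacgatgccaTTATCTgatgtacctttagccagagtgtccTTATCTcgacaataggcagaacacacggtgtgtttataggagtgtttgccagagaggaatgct

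The letters occur at 2 places between the genes. On either strand they were in 11.2% of all 32851 RefSeq promoter windows, which reach from 250 bases before a start to 50 after it. They were in 6 of the 40 windows of the 34 ABC genes that have one. Abcg5 and Abcg8 are counted separately there, although their windows overlap and hold the same matches. A match describes letters and is no evidence of binding.

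Abca1 exports cholesterol and phospholipid to apolipoprotein A-I, in the intestine at the basolateral face. Its probe set 1421840_at gave 822 and 679 in control and 151 and 275 in knockout arrays. The groups were far apart, and knockout replicate 1 was again the lower array. The log2 difference was -1.79 ± 0.24, or a 3.46-fold fall (limma adjusted p = 0.00315). All 3 probe sets of the gene were called lower, between -1.79 and -0.91, so the size of the fall depends on the probe set.

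The 150 bases before the Abca1 start are shown because they hold the element known in this promoter for LXR, the sterol-sensing nuclear receptor that drives Abca1. They lie at chr4:53159896-53160045 (GRCm38.p6, minus strand), and capitals mark the element, whose letters (any base at the 2 places after TGACCG) were also searched after the sequence had been seen.

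Abca1: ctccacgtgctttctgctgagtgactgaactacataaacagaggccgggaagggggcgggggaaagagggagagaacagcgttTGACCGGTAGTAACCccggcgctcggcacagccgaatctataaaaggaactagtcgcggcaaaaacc

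The match begins 67 bases before the start, and 3 of 32851 promoter windows hold it on either strand. A perfect direct repeat of AGGTCA spaced by 4 bases was in 5 windows, none of an ABC gene.

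The other sterol and phospholipid exporters were not called. Abcg1, which passes cholesterol to HDL, was dim, with 49.9 and 64.8 in control and 47.3 and 60.1 in knockout arrays (log2 difference -0.07, 95% interval -0.40 to 0.26). Abca7, a phospholipid exporter related to Abca1, stood at 248 and 228 against 194 and 209. Its knockout arrays were both below the controls (-0.23 ± 0.10, limma adjusted p = 0.167). Abcb4, the phosphatidylcholine floppase of bile, and Abcg4, a sterol exporter known from brain, had log2 differences of -0.01 and 0.14.

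The genes around sterol export were lower in part. In the LXR list 4 of 6 measured genes (66.7%, beside 11.0% of all genes called lower) fell and none rose. They were Nr1h3, which encodes LXR alpha (586 and 570 in control, 317 and 399 in knockout arrays, -0.68 ± 0.13), its partner Rxra (-0.58 ± 0.11), and the LXR target genes Lpcat3 (-1.14 ± 0.13) and Mylip (-0.71 ± 0.15), with 2 called without control replicate 1. Srebf1, another LXR target, had -0.14 ± 0.10 and was not called. Of 8 genes of sterol and lipid uptake Npc1l1, the apical cholesterol importer, fell (3833 and 3864 to 1336 and 2121, -1.19 ± 0.20), and 5 fell without knockout replicate 2. With all 4 arrays, the 1 fall in this list was 12.5% of its genes, beside 11.0% of all genes called lower. The importer and the Abcg5 and Abcg8 exporters of the same membrane were thus lower on the same arrays.

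Among 13 exporters of drugs, conjugates and bile salts Abcg2, Abcb1a and Abcc3 fell and Abcc1 rose. That is 30.8% of the role called, beside 24.4% of all genes. The falls were 23.1% beside 11.0%, and the rise 7.69% beside 13.4%. Abcg2 (1422906_at), the apical breast cancer resistance protein that exports drugs and urate, had 1189 and 1284 in control and 503 and 598 in knockout arrays. The arrays of each group lay close together, with a wide gap between the groups. The log2 difference was -1.15 ± 0.12, or a 2.22-fold fall (limma adjusted p = 0.00131), the smallest adjusted p of the family.

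Abcb1a encodes the main intestinal P-glycoprotein, an apical pump for many drugs. Its probe set 1419759_at gave 4522 and 3876 in control and 2133 and 2936 in knockout arrays, and a log2 difference of -0.74 ± 0.16 (limma adjusted p = 0.0175). The second probe set was also called lower, at -1.07. The call was lost without control replicate 1 (adjusted p = 0.0971) and without knockout replicate 1 (0.0573), and over 14 alternatives the adjusted p ranged from 0.00513 to 0.0971.

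Abcb1b, the second mouse P-glycoprotein gene, and Abcb4 follow Abcb1a directly on chromosome 5. Abcb1b was near background, with 49.5 and 54.0 in control and 62.9 and 72.5 in knockout arrays. Its knockout arrays were both above the controls, but the difference of 0.30 ± 0.11 was not called (limma adjusted p = 0.0840). Abcb4 had 77.8 and 80.4 against 80.0 and 76.7, so its groups overlapped. The difference between the 2 P-glycoprotein genes was not itself tested.

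The 150 bases before the starts of both P-glycoprotein genes are shown because the genes are neighbours and close relatives, of which Abcb1a was called lower and Abcb1b was not called. Both lie on the plus strand of GRCm38.p6, Abcb1a at chr5:8566941-8567090 and Abcb1b at chr5:8797997-8798146. Capitals mark CCAAT or its reverse complement, searched after the sequences had been seen.

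Abcb1a: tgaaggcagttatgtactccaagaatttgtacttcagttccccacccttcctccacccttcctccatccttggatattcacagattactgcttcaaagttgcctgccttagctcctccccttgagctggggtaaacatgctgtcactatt
Abcb1b: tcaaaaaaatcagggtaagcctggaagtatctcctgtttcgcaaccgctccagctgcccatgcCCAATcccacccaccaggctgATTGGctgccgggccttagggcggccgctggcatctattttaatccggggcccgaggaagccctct

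The stretch of Abcb1b holds the letters at 2 places and that of Abcb1a at 0, while 37.4% of all promoter windows hold them on either strand.

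Abcc1, which exports leukotriene C4 and glutathione conjugates across the basolateral membrane, was the member with the largest rise. Its probe set 1421378_s_at gave 230 and 210 in control and 500 and 435 in knockout arrays. The groups were well separated. The log2 difference was 1.03 ± 0.11, or 2.05-fold (limma adjusted p = 0.00153), and the second probe set rose by 1.14. The suffix _s marks probes that can match more than 1 transcript, and the probe sets used for Abcc2, Abce1 and Abcg4 carry it too.

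Abcc3, a basolateral exporter of glucuronide conjugates and bile salts, fell from 1628 and 1543 to 990 and 1246 (-0.51 ± 0.13, limma adjusted p = 0.0287). The call was lost without control replicate 1 (adjusted p = 0.136), control replicate 2 (0.0955) and knockout replicate 1 (0.106), and the adjusted p ranged from 0.00991 to 0.136 over the alternatives.

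Abcc2, the apical exporter of glucuronide and glutathione conjugates, was the member on which the knockout arrays parted. Control arrays read 2307 and 2389, knockout replicate 1 read 1058, and knockout replicate 2 read 2507, above both controls. The log2 difference of -0.52 ± 0.34 was not called (limma adjusted p = 0.335, 95% interval -1.33 to 0.28). It was 0.09 without knockout replicate 1, and -1.14 with an adjusted p of 0.00191 without knockout replicate 2, and over the 14 alternatives the adjusted p ran from 0.00191 to 0.648.

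The remaining members with this role were not called, with log2 differences between -0.27 and 0.07 once Abcb1b is set aside. Abcc6, which mediates ATP release, had 99.5 and 110 in control and 82.6 and 85.7 in knockout arrays (-0.27 ± 0.10, limma adjusted p = 0.0995). Abcc4, an exporter of cyclic nucleotides, read 154 and 148 against 150 and 146. For Abcc5, its relative, the arrays carry 10 probe sets and none was called. Abcb11, the bile salt export pump of the liver, was near background at 39.3 to 48.7.

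Bile acid genes other than ABC genes fell in 4 of 6 cases (66.7%, beside 11.0% of all genes called lower) and rose in none. Slc51a, part of the basolateral bile acid exporter, went from 1277 and 1305 to 292 and 414 (-1.84 ± 0.16), and Fabp6, the bile acid binding protein, fell by 1.44 ± 0.10. The apical importer Slc10a2 (-1.30 ± 0.16) and the hormone gene Fgf15 (-0.62 ± 0.12) also fell. Fgf15 was near background, at 62.7 and 75.5 in control and 35.8 and 42.6 in knockout arrays. Of 7 receptors and factors that control drug transporters Ppara (-0.77 ± 0.14) and Nr1i3 (-0.86 ± 0.19), the receptor CAR, fell. These falls were 28.6% of that list, beside 11.0% of all genes called lower. The count was 1 without control replicate 1 or knockout replicate 1, 4 with a trended and robust prior and 5 with the mean of all probe sets. Nr1i2, the receptor PXR, had 1423 and 1298 against 866 and 1151 and was not called (-0.44 ± 0.15, limma adjusted p = 0.0721).

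Of 5 scaffold genes that hold apical transporters in the microvillus 3 fell, Pdzk1 (1864 and 1691 to 314 and 530, -2.08 ± 0.22), Slc9a3r1 (-0.74 ± 0.15) and Ezr (-0.40 ± 0.11). The falls were 60% of the list, beside 11.0% of all genes called lower. Without control replicate 1 or control replicate 2 the count was 1.

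**Figure D2:**
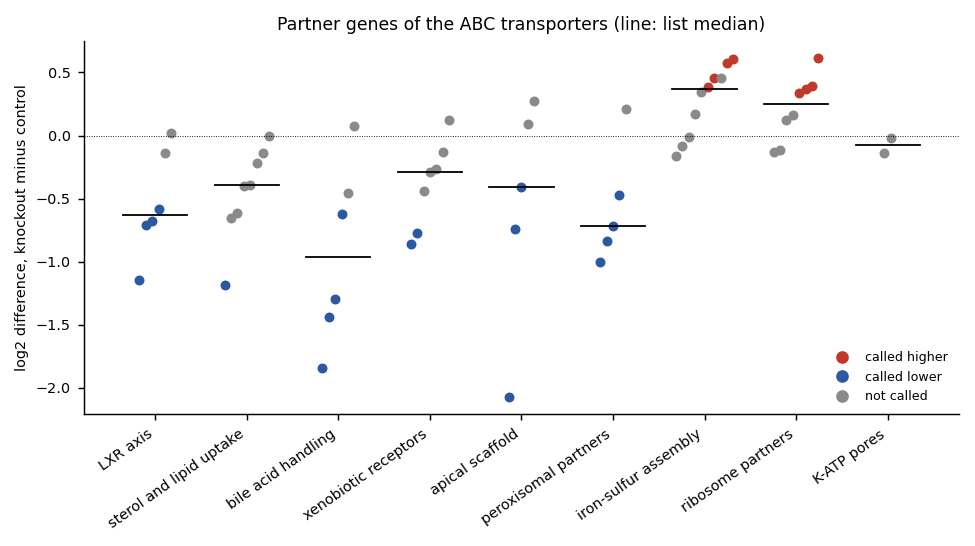
Log2 difference, knockout minus control on log2(intensity + 16), of each measured gene in 9 lists of genes that work with ABC proteins, with the list median as a line. Of the LXR axis 4 genes fell, of bile acid handling 4 and of the apical scaffold 3, while iron-sulfur assembly and ribosome partners each held 4 rises.

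Of 3 measured members of mitochondria, Abcb10 and Abcb6 fell. Abcb10, an inner membrane protein needed for heme synthesis, had 1487 and 1606 in control and 932 and 1077 in knockout arrays (-0.62 ± 0.11, limma adjusted p = 0.00834). A second probe set was also called lower, at -0.52, and the third, near background at 30.8 to 40.5, gave 0.15 and no call. Without control replicate 2 the adjusted p was 0.0596.

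Abcb6, a porphyrin transporter of mitochondria and endolysosomes, read 624 and 604 against 484 and 475, and the 2 values of each group lay close together (-0.35 ± 0.09, limma adjusted p = 0.0361). The call was lost when any 1 array was left out, at adjusted p between 0.0886 without knockout replicate 2 and 0.180 without control replicate 1. Over all 14 alternatives it ranged from 0.0197 to 0.180. Abcb8, an inner membrane member, stood at 276 and 268 against 318 and 310, both knockout arrays above the controls, and was not called (0.20 ± 0.09, adjusted p = 0.190).

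In a list of 10 measured genes that assemble iron-sulfur clusters, substrates of mitochondrial ABC export, 4 rose (40%, beside 13.4% of all genes) and none fell. Glrx5 went from 1251 and 1183 to 1859 and 1791 (0.58 ± 0.10), and Nfs1 (0.60 ± 0.13), Gfer (0.46 ± 0.12) and Iscu (0.39 ± 0.10) rose. Of these rises 2 were called without control replicate 1, and 1 without control replicate 2 or knockout replicate 1. The iron-sulfur genes that were called thus moved opposite to Abcb10 and Abcb6 on the same arrays.

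Of 3 members of peroxisomes and lysosomes Abcd4 was called, or 33.3%, beside 24.4% of all genes. Abcd4, which takes part in the release of vitamin B12 from lysosomes, had 481 and 486 in control and 360 and 397 in knockout arrays (-0.34 ± 0.10, limma adjusted p = 0.0463 over genes). With p-values adjusted over all probe sets in place of genes, neither of its 2 probe sets passed, at 0.0561 and 0.0928. The call was also lost without control replicate 1 (0.170), control replicate 2 (0.190) and knockout replicate 1 (0.168), within a range of 0.0306 to 0.190 over the alternatives.

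Abcb9, a lysosomal peptide transporter, read 151 and 157 against 134 and 169, and the groups overlapped. Abcd2, a peroxisomal transporter of very long chain fatty acids, was near background at 38.5 to 46.9. Of 5 peroxisomal partner genes 4 fell and none rose, namely Pex19, which delivers ABCD proteins to the peroxisome (1005 and 1044 to 588 and 549, -0.83 ± 0.10), and the enzymes Slc27a2 (-1.01 ± 0.12), Hsd17b4 (-0.72 ± 0.13) and Acaa1a (-0.47 ± 0.12). Without control replicate 1 the count was 2.

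The 4 ribosome-associated members did not move together. Abce1, which splits ribosomes after termination, had 1092 and 950 in control and 1710 and 1399 in knockout arrays. Both knockout arrays were above both controls (0.60 ± 0.13, 1.51-fold, limma adjusted p = 0.0171). A second probe set rose by 0.80, and the third and dimmest, at 90.5 to 135, gave -0.17 with no call. Without control replicate 2 the adjusted p was 0.109 and without knockout replicate 1 it was 0.0733.

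Abcf3, a relative of the yeast translation factor GCN20, fell from 857 and 701 to 520 and 509 (-0.58 ± 0.12, limma adjusted p = 0.0139). All 3 of its probe sets were called lower, between -0.78 and -0.58. Without control replicate 1, the higher of the controls, the adjusted p was 0.0860. Abcf1, which binds the initiation factor eIF2, read 6349 and 6133 against 6699 and 6481. That probe set gave 0.08 with an interval of -0.15 to 0.30. Of its 5 other probe sets 3 gave 0.31 to 0.33, with both knockout arrays above both controls and adjusted p of 0.0600 to 0.0811 by limma over all probe sets, and the mean of all 6 gave 0.21 (adjusted p = 0.122, in a range of 0.122 to 0.855 over the alternatives). Abcf2 was at 769 and 833 against 795 and 875 (0.06 ± 0.10), and its second probe set, at 500 and 501 against 600.1 and 771, gave 0.43 ± 0.13 (limma adjusted p = 0.0620) and was not called.

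Of 8 measured partner genes in ribosome recycling and initiation 4 rose (50%, beside 13.4% of all genes) and none fell. Gspt1, the release factor eRF3a, went from 1237 and 1223 to 1924 and 1865 (0.62 ± 0.09), and its partner Etf1 (0.37 ± 0.10), the ribosome rescue factor Pelo (0.34 ± 0.09) and the eIF2 subunit Eif2s3x (0.39 ± 0.11) rose with it. Only 1 of these rises was called with a pseudocount of 1, and likewise without control replicate 1, control replicate 2 or knockout replicate 1.

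Neither receptor subunit of ATP-sensitive potassium channels was called. Abcc8 (SUR1) read 66.7 and 74.2 against 77.8 and 77.8, and Abcc9 (SUR2) 53.5 and 53.8 against 45.1 and 49.5. The pore genes Kcnj8 and Kcnj11 had log2 differences of -0.14 and -0.02 and were not called.

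None of the 12 other members of the A subfamily was called, and their log2 differences lay between -0.19 and 0.35. Abca3, known for loading lipid into lamellar bodies of the lung, read 357 and 415 against 402 and 349, and Abca2, a lipid transporter of endolysosomes, 141 and 159 against 141 and 169, with overlapping groups for both. Abca12, Abca13, Abca14, Abca16 and Abca8a were under the Bacillus median on all 4 arrays, so a fall in them could not be measured here, and none was called higher. The other 5 of the 12, Abca4, Abca5, Abca6, Abca8b and Abca9, had values between 26.5 and 84.4.

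**Figure D3:**
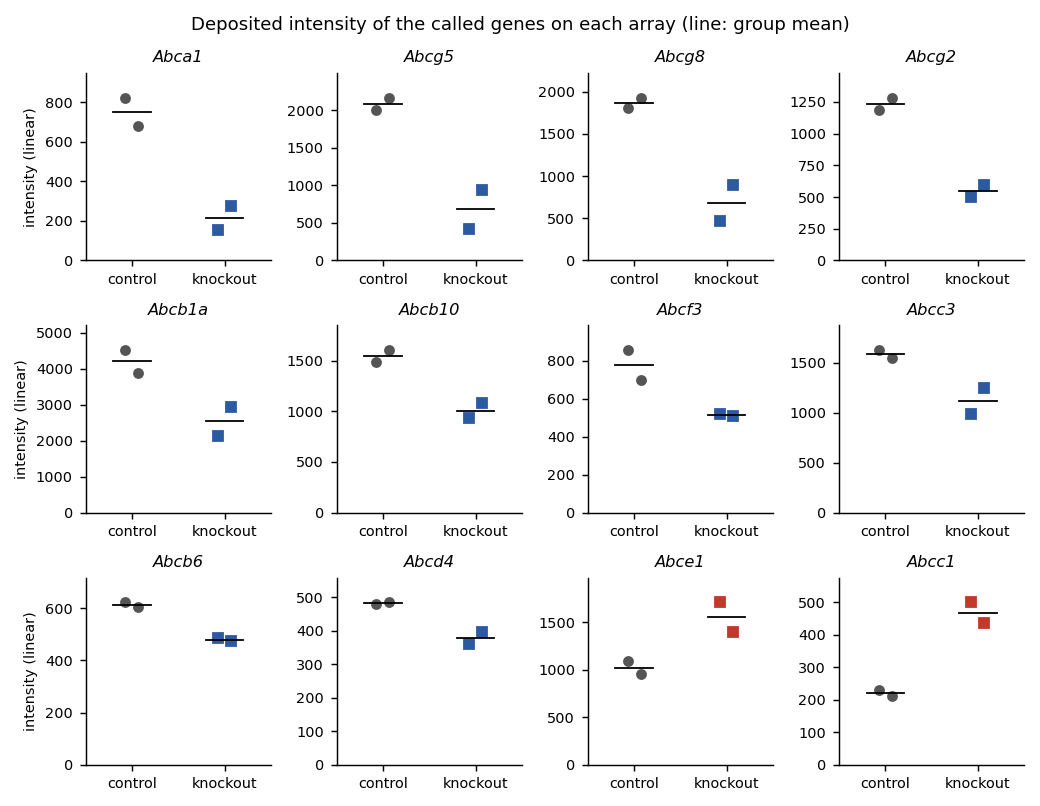
Linear intensity of each of the 12 called genes on the 4 arrays, controls as circles and knockout arrays as squares, with the group mean as a line. In all 12 the groups do not overlap, which choosing called genes favours, and in 62.0% of all genes they do not overlap either. The knockout arrays of Abcg5 read 421 and 934.

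The size of the falls differed between the knockout arrays. In 8 of the 10 falling members knockout replicate 1 was farther from the controls than replicate 2, and in all genes called lower this was so in 74.3%. The 14 enterocyte markers followed that order as well, with a mean log2 difference from the controls of -1.85 in replicate 1 and -1.21 in replicate 2. Abcb6 and Abcf3 were the 2 falling members with the opposite order, by small margins. Both rising members, Abcc1 and Abce1, were likewise farther from the controls in replicate 1, as were 80.4% of all genes called higher.

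**Figure D4:**
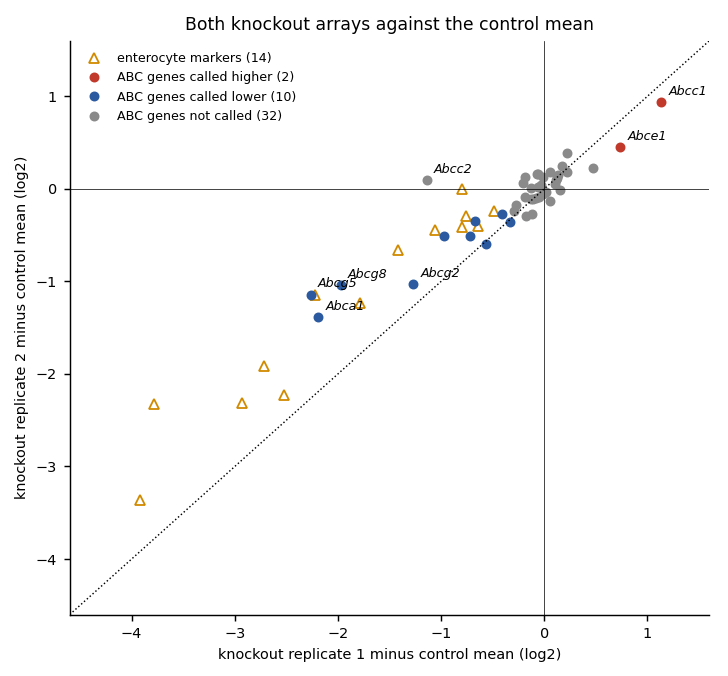
Log2 difference from the control mean in knockout replicate 1 (x axis) and replicate 2 (y axis) for the 44 ABC genes and 14 enterocyte markers, on log2(intensity + 16), with a dotted line where both are equal. Abcg5, Abcg8 and Abca1 lie among the enterocyte markers above the line, and Abcc2 is at -1.14 in replicate 1 and at 0.09 in replicate 2.

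Where a called member had several probe sets, they mostly shared a direction. Of 7 such members Abca1, Abcb1a, Abcf3 and Abcc1 had every probe set called the same way. No probe set of a called member was called in the opposite direction. Abcb6, Abcc3, Abcg2, Abcg5 and Abcg8 rest on 1 probe set each.

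**Figure D5:**
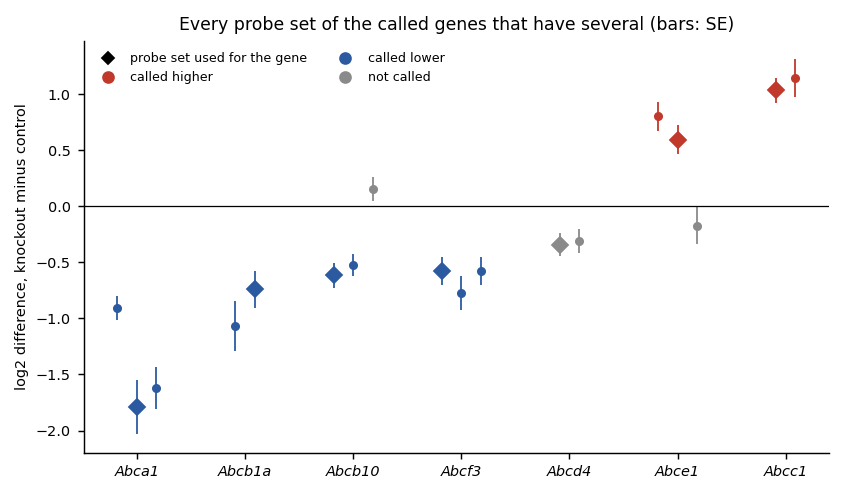
Log2 difference, knockout minus control on log2(intensity + 16), of every probe set of the 7 called genes with several, with SE bars and calls adjusted over all probe sets, and a diamond for the probe set used for the gene. The dimmest probe sets of Abcb10 and Abce1 lie on the other side of 0 from the rest, and neither was called.

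Family genes that carry other symbols fell outside the rule. Cftr, the chloride channel of the C subfamily, read 3499 and 3371 against 3150 and 2925 (-0.18 ± 0.10, limma adjusted p = 0.257). Tap1, a subunit of the peptide transporter of antigen presentation, rose from 517 and 599 to 701 and 930 (0.52 ± 0.15, adjusted p = 0.0447), but gave -0.05 as the mean of its probe sets and lost the call without control replicate 1 (0.213), control replicate 2 (0.0822) or knockout replicate 2 (0.143). Its adjusted p ran from 0.0112 to 0.965 over the alternatives. Its partner Tap2 was at 300 and 303 against 301 and 345.

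Letters of 2 further motifs were searched in the promoter windows of the 34 ABC genes that RefSeq's table holds, 40 windows in all. AANATGGC, the core letters of the YY1 motif, was in 0 of them on either strand, beside 6.05% of all 32851 windows. CAAAGTCCA, a motif of HNF4, was also in 0 of them, beside 0.475% of all windows. The result covers these letters in these windows and says nothing about where either factor binds.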

How the data were processed

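The table analysed is the authors' deposited table, with 1 linear intensity for each probe set on each array, for 2 control and 2 knockout arrays. Per the labels' protocols, crypts were freed with EDTA and a 70 um filter, RNA came from Trizol, and Affymetrix procedures were used. Methods of summary and normalization, and a genome build, are not given in the sources used here. Detection calls were not used here.

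Of 45101 probe sets 34945 had 1 gene in the platform annotation from GEO, and symbols came from RefSeq where it held them (GRCm38.p6, names and promoter sequences only). Each gene was read from its probe set of highest mean log2(intensity + 16). The fit was limma 3.58.1 (R 4.3.3), comparing knockout with control by lmFit and eBayes without a block (18193 genes, Benjamini-Hochberg, 7.05 degrees of freedom). Differences on this scale understate changes of dim genes. On simulated data for this comparison with 18193 genes, 29.6% of 1.5-fold, 90.8% of 2-fold and 99.2% of 4-fold changes were recovered. The simulation held far fewer changed genes than the 24.4% called in the data, so recovery in the data can differ from these rates. The number of arrays limits precision.

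The members, role lists and partner lists were chosen with earlier results of these data known. The genes named were all called members, the 2 with the highest signal in each role list (used for naming only), a set of well-known intestinal members, and called partners. Other members were added after their values were seen. Listed genes without a probe set of their own were not analysed here.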

Additional observations from a re-analysis of the deposited data

How the results depend on the processing

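Alternatives were pseudocounts of 1 and 64, quantile normalization, median scaling, brighter genes alone, a trended and robust prior, the dimmest or the mean of a gene's probe sets, a replicate block, each array left out and, added after seeing the data, the probe set with the highest linear mean. Abca1, Abcg2 and Abcc1 kept their call under all 14. With the dimmest probe set 1 ABC gene rose and 7 fell, and Abcb10 gave 0.15, Abce1 -0.17, Abca3 0.0086 and Abcc9 0.080. A trended and robust prior gave 2 rises and 7 falls, and a pseudocount of 1 gave 2 rises and 8 falls. Of all genes 1522, 2094 and 1776 were called lower in these fits, in that order. With 1 array left out, 1 to 2 ABC genes rose and 5 to 10 fell, and of all genes 1157 to 2307 rose and 1040 to 2059 fell. Genes not called changed sign in such fits: Abca2 ranged from -0.075 to 0.16, Abca3 from -0.14 to 0.066, Abcb9 from -0.19 to 0.12, Abcc2 from -1.14 to 0.094, Abcg1 from -0.22 to 0.074 and Tap2 from -0.0012 to 0.18. Tap1 gave -0.047 with the mean of its probe sets. The cause of these changes was not tested. Replicate numbers are shared by the groups, and deviations of same-numbered arrays correlated at 0.0969 over 18193 genes. With 2 arrays per group, crossed numbers must give the same value with the opposite sign (-0.0969). The correlation therefore cannot tell whether same-numbered arrays share more than a number. With the replicate block 3 ABC genes rose and 10 fell (2662 and 2219 of all genes). For members under the Bacillus control level a fall could not be measured.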
